A study of Mus musculus with 6 samples.

Results

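Genes of T cells and natural killer (NK) cells were read in 6 mouse mammary tumours from a study of serglycin, a proteoglycan of secretory granules. The set was a list of 36 gene symbols, from the chains of the T cell receptor complex to NK receptors and checkpoint genes, and each gene was represented by the probe set that the platform annotation ties to its symbol alone. Of the 36 genes, 32 were matched this way, out of 22180 genes measured in all. Cd247, Lck, Tcf7 and Il2rg had no such probe set and were not analysed here. All 6 mice carried the PyMT transgene (PyMT+), a polyoma virus oncogene under which mammary tumours form, and the promoter behind it is not given in the sources used here. The tumours of 3 mice lacked serglycin (PyMT+ SG-/-), and those of 3 mice were heterozygous (PyMT+ SG+/-), so the control mice kept only 1 intact serglycin allele. Ages are not given. Each mouse gave 1 array hybridised with material from 250 ng of total RNA. The comparison asks how expression in the tumour differs when serglycin is lost.

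T cells recognise antigen through a receptor whose signal enters the cell by way of the CD3 chains, with CD4 or CD8 as coreceptors that bind the presenting MHC molecule. NK cells kill without such a receptor and are steered by activating and inhibitory receptors of the NKG2 and natural cytotoxicity families. In mammary tumours both are a minority among tumour, stromal and myeloid cells. Serglycin itself is the granule matrix on which cytotoxic lymphocytes store granzymes and perforin.

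Levels are log2 expression values made with the robust multi-array average (RMA), 1 value per probe set, and differences are SG-/- minus SG+/- on that log2 scale. In whole tumour tissue, more cells of a type and more RNA per cell cannot be told apart. Serglycin (Srgn) itself was lower in each SG-/- tumour, at 5.07, 5.04 and 4.89 against 6.76, 6.43 and 6.35 in SG+/- tumours. It had the smallest limma p of all genes, with a difference of -1.52 and an adjusted p of 0.467. All 10 epithelial markers of a marker list were above the dim level of 6.09, defined here as the 40th percentile of probe set means. The 3 matched CD3 genes, which define T cells, had means above that level too, Cd3d only through its SG-/- tumours. Of the NK cell markers, the mean of Klrd1 was above it and those of Ncr1, Eomes and Klrb1c were below. The arrays differed in the signal of genes presumed to be off in mammary tissue. The mean over 1390 olfactory and vomeronasal receptor genes ran from 4.58 to 5.63 in SG+/- and from 4.58 to 5.87 in SG-/- tumours. It was highest in SG-/- replicate 3 and lowest in replicate 1 of both genotypes. Of these 1390 genes, 319 had means above the dim level, so a mean above it does not by itself show expression.

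In 8 genes of this set every SG-/- tumour lay above every SG+/- tumour. They were the 3 CD3 genes, both CD8 chains, the cytokine receptor genes Il7r and Il2rb, and Cd274, which encodes the checkpoint ligand PD-L1. Their differences ran from 0.30 to 0.74. This was 8 of the 32 genes (25%), against 2.84% of all genes. In lists of genes of all leukocytes and of macrophage markers, described further below, it was 4 of 8 (50%) and 4 of 12 (33.3%). No gene of the set lay wholly lower in SG-/- tumours, against 3.19% of all genes. A higher SG-/- mean was seen in 26 of the 32 genes (81.3%) and in 46.3% of all genes. The median difference over the set was 0.12, beside -0.014 over all genes.

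None of the 32 genes passed the limma test after Benjamini-Hochberg adjustment over all genes, where 0% of genes were called, and each had an adjusted p of 1.00. At an unadjusted limma p under 0.05 there were 6 genes of the set, all higher in SG-/- tumours, where 1.43% of all genes were higher at that p. That count was 1 without SG-/- replicate 1, without SG+/- replicate 2 or without SG+/- replicate 3, and 1 after a second quantile normalization. For single genes, the exact two-sided permutation test cannot go below p = 0.1 with 3 against 3 tumours. When the deposited values were quantile normalized again, 3 genes of the set were free of overlap, of which 2 belonged to the 8, against 2.99% of all genes. They were Cd3d, Cd3g and Icos, so Cd3e, both CD8 chains, Il7r, Il2rb and Cd274 then overlapped. With arrays centred on their brighter genes the count was 6, all among the 8, against 3.31% of all genes, and Cd3e and Cd3d overlapped. With limma array weights, which gave SG-/- replicate 2 a weight of 4.95 and SG-/- replicate 3 one of 0.197, 18 of the 32 genes were higher and the median difference was 0.030.

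**Figure D1:**
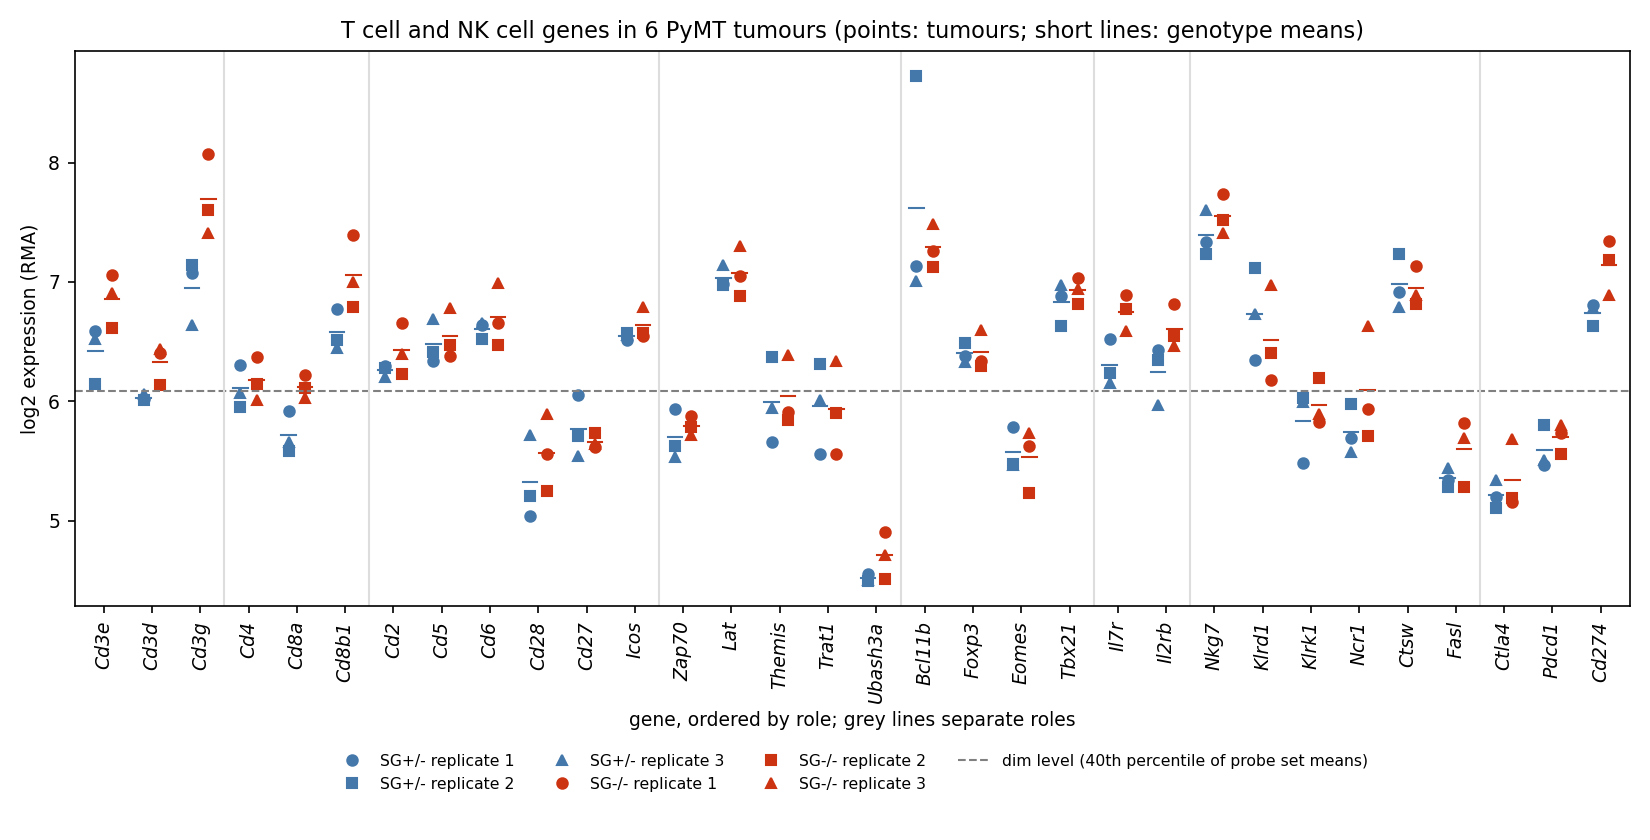
Expression of the 32 T cell and NK cell genes in each tumour, in log2 units on the y axis, with blue for SG+/- and red for SG-/-, symbols for replicates and short lines for genotype means (n = 3 each). The dashed line is the dim level of 6.09, and the red points lie wholly above the blue ones in Cd3e, Cd3d, Cd3g, Cd8a, Cd8b1, Il7r, Il2rb and Cd274.

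Levels separated the set into 19 genes above the dim level and 13 below it. Cd4, at a mean of 6.14, was the gene just above that level and Themis, at 6.02, the one just below. Of the 19 brighter genes 16 had a higher SG-/- mean, the median of the differences was 0.10, and 7 were free of overlap. Cd3d, one of these 7, passed the dim level only through its SG-/- tumours, as its SG+/- values were 6.02, 6.01 and 6.06. Over all genes above the dim level, 42.2% had a higher SG-/- mean and 3.10% were free of overlap with higher SG-/- values. The median of the brighter genes was 0.18 without SG-/- replicate 2. Of the 13 dimmer genes 10 had a higher SG-/- mean, at a median of 0.13, and Cd8a alone was free of overlap, beside 54.6% and 2.31% of all genes below the dim level. For a gene below the dim level or little above it, the array values do not show whether it was expressed.

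The signal-transducing chains of the T cell receptor complex, Cd3e, Cd3d and Cd3g, were all higher without serglycin. Cd3g (Entrez 12502) stood at 7.07, 7.14 and 6.64 in SG+/- replicates 1 to 3 and at 8.08, 7.60 and 7.41 in SG-/- replicates 1 to 3. The lowest SG-/- value was 0.27 above the highest SG+/- value, the widest gap among the 32 genes. The Cd3g difference was 0.74 (standard error 0.22, 95% confidence interval 0.22 to 1.26), a 1.67-fold difference.

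Cd3e (Entrez 12501) stood at 6.59, 6.14 and 6.52 in SG+/- and at 7.06, 6.62 and 6.90 in SG-/- tumours. Here SG-/- replicate 2 was only 0.028 above SG+/- replicate 1, and the genotypes overlapped after quantile normalization again. The Cd3e difference was 0.44 (standard error 0.18, 95% confidence interval 0.014 to 0.87). Cd3d (Entrez 12500) stood at 6.02, 6.01 and 6.06 in SG+/- and at 6.41, 6.14 and 6.44 in SG-/- tumours, a difference of 0.30 (standard error 0.13, 95% confidence interval -0.015 to 0.61). SG+/- tumours differed little in Cd3d (SD 0.028), and SG-/- replicate 2 lay nearest to them. With array weights, which lean on SG-/- replicate 2, the difference of Cd3e was 0.24 and that of Cd3d 0.15, while that of Cd3g was 0.83. All 3 CD3 genes were thus lowest, among SG-/- tumours, in replicate 2 or 3, and Cd3e and Cd3g were highest in replicate 1.

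Promoter sequence is shown for Cd3g, Cd3d, Il7r and Cd274, which are among the genes free of overlap. Among SG-/- tumours, Cd3d was highest in replicate 3 and Cd3g, Il7r and Cd274 in replicate 1. Shared regulation was not tested. Of the 6 genes free of overlap that have a RefSeq promoter entry, Cd3e and Cd8a are not shown. Their stretches before the annotated 5′ end held no match to the motifs searched. Cd3g and Cd3d are transcribed away from each other, with 1355 bases between the starts of their RefSeq promoter entries (GRCm38.p6). The start in the Cd3d entry lies 17 bases inside the annotated gene. The Cd3g stretch is chr9:44980432-44980681 (minus strand) and the Cd3d stretch chr9:44981536-44981768 (plus strand). Each is read 5′ to 3′ and ends at the annotated 5′ end of the gene. Capitals mark matches to any of 6 motifs searched on both strands.
Cd3g: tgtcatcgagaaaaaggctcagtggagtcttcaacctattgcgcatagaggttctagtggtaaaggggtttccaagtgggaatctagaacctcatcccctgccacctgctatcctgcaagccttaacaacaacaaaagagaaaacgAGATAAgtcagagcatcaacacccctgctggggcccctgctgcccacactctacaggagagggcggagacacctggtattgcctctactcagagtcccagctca
Cd3d: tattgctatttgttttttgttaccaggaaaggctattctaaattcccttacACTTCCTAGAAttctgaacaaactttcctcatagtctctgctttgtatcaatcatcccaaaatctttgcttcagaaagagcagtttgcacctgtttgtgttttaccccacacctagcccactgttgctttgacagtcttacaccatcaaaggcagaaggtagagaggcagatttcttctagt
The Cd3g capitals are a GATA match (AGATAA). The Cd3d capitals are an ETS match (GGAAGT, here on the reverse strand) that overlaps a GAS-like match (TTCNNNGAA), the form bound by STAT factors. In the 250 bases before the start, the ETS letters were found in 7 of the 23 genes of the set that have a RefSeq promoter entry (30.4%) and in 19.7% of 32851 promoters. The GAS-like letters were found in 3 of the 23 (13%) and in 7.02% of all promoters. The GATA letters were found in 2 of the 23 (8.7%) and in 9.99%. The other motifs were RUNX (TGTGGT), in 4 of the 23 and 14% of all, TCF/LEF (CTTTGAA), in 1 and 4.46%, and a form like the interferon-stimulated response element, called ISRE-like here, in 1 and 2.98%. Some matches counted over the 250 bases, such as the ETS match of Cd3e, lie in bases inside the annotated gene that were left out of the printed stretches. A match is a run of letters and not evidence of binding.

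Among the coreceptors, both CD8 chains were higher in SG-/- tumours and Cd4 was not separated. After quantile normalization again, both CD8 chains overlapped between genotypes too. Cd8a (Entrez 12525), the chain shared by CD8 dimers, stood at 5.92, 5.58 and 5.66 in SG+/- and at 6.22, 6.11 and 6.02 in SG-/- tumours. The Cd8a difference was 0.40 (standard error 0.14, 95% confidence interval 0.063 to 0.74), and its mean lay below the dim level. Cd8b1 (Entrez 12526), the beta chain of conventional cytotoxic T cells, stood at 6.77, 6.51 and 6.45 in SG+/- and at 7.39, 6.79 and 7.00 in SG-/- tumours. SG-/- replicate 2 exceeded SG+/- replicate 1 by just 0.021. The Cd8b1 difference was 0.48 (standard error 0.19, 95% confidence interval 0.038 to 0.93), or 0.32 without SG-/- replicate 1.

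Cd4 (Entrez 12504), the helper T cell coreceptor that some myeloid cells also make, stood at 6.30, 5.95 and 6.07 in SG+/- and at 6.37, 6.15 and 6.01 in SG-/- tumours. The genotypes overlapped, the difference was 0.068 (95% confidence interval -0.30 to 0.44), and it turned to -0.029 without SG-/- replicate 1. The genotype difference of Cd8a exceeded that of Cd4 by 0.33, and that of Cd8b1 exceeded it by 0.41. Measured in each tumour against the SG+/- mean, the Cd8a excess over Cd4 was 0.24, 0.35 and 0.40 in SG-/- tumours and ran from -0.023 to 0.014 in SG+/- tumours. For Cd8b1 the excess was 0.55, 0.17 and 0.52, with SG+/- tumours from -0.090 to 0.088. Both comparisons gave an exact two-sided permutation p of 0.1, the smallest possible here, and 0.1 after adjustment over the 2 pairs. The pairs were chosen after the values were seen.

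**Figure D2:**
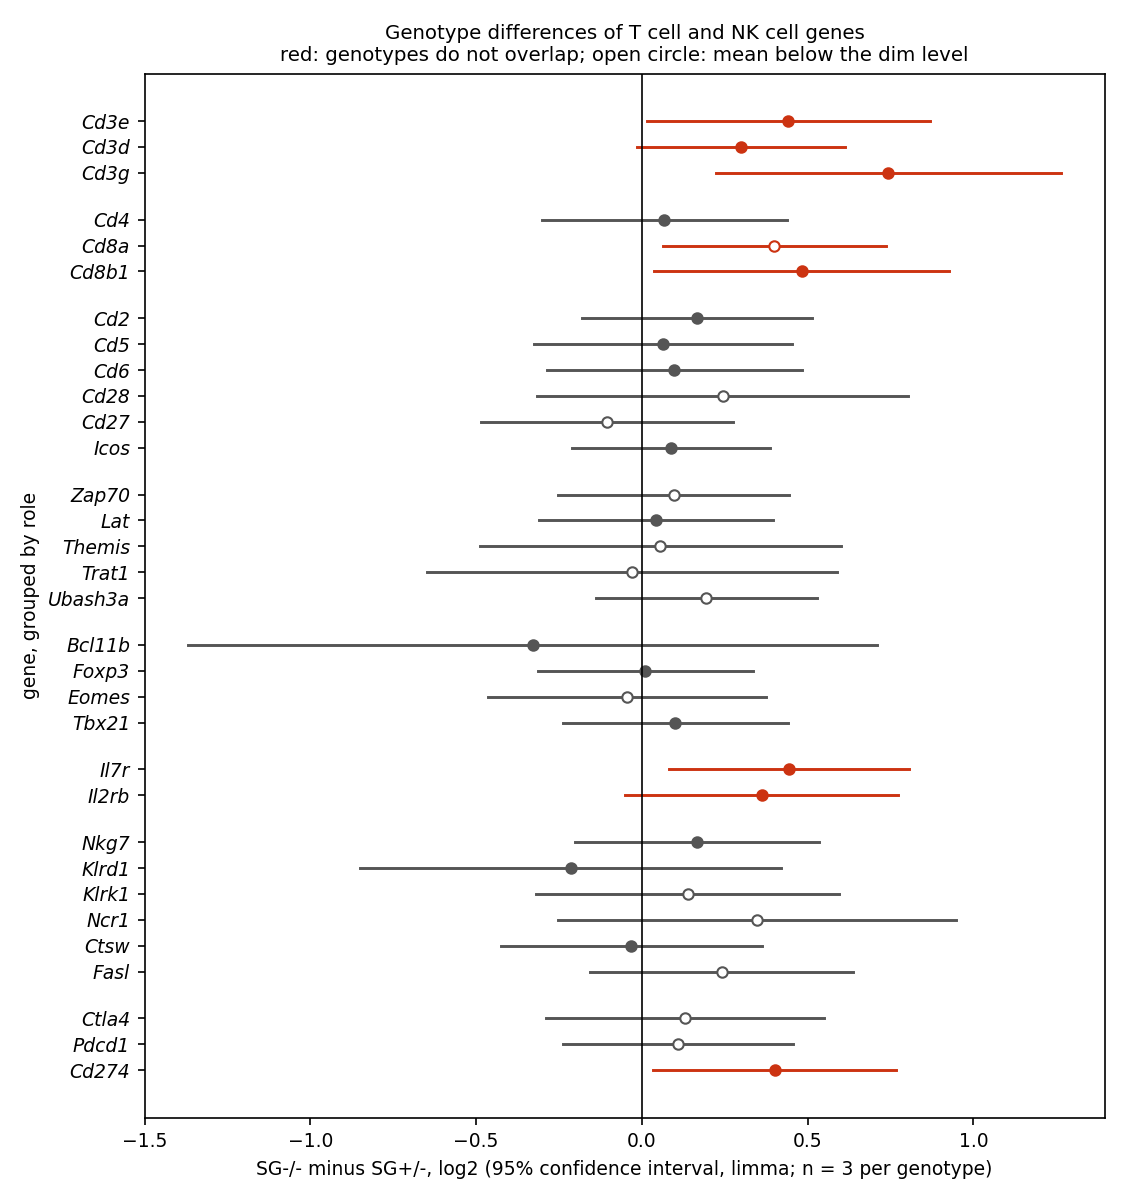
Genotype difference of each gene (SG-/- minus SG+/-, log2, x axis) with its 95% confidence interval from limma, grouped by role on the y axis (n = 3 per genotype). Red marks the 8 genes whose genotypes did not overlap, open circles mark means below the dim level, and the CD3 and CD8 genes lie to the right of Cd4 at 0.068.

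The cytokine receptors that were matched were both higher in SG-/- tumours, and both overlapped between genotypes after quantile normalization again. Il7r (Entrez 16197), the IL-7 receptor chain that naive and memory T cells and innate lymphoid cells need to survive, stood at 6.52, 6.24 and 6.16 in SG+/- and at 6.89, 6.77 and 6.59 in SG-/- tumours. The Il7r difference was 0.44 (standard error 0.15, 95% confidence interval 0.083 to 0.81), with a gap of 0.070 between the genotypes. Il2rb (Entrez 16185), the IL-2 and IL-15 receptor chain of activated T cells and NK cells, stood at 6.43, 6.34 and 5.97 in SG+/- and at 6.82, 6.55 and 6.46 in SG-/- tumours. Its difference was 0.36 (standard error 0.17, 95% confidence interval -0.050 to 0.77), or 0.22 without SG+/- replicate 3, the lowest tumour. Both genes had the same order of tumours within SG-/- animals, with replicate 1 highest and replicate 3 lowest. The Il7r stretch before its annotated 5′ end, chr15:9529942-9530126 (minus strand) in GRCm38.p6, holds 1 of the motif matches, a GAS-like one, in capitals.
Il7r: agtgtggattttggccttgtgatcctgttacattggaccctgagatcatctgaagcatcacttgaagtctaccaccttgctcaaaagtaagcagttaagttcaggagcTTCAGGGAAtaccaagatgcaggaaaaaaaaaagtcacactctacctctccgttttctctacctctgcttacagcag

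Of the 3 checkpoint genes, the genotypes were separated in the ligand Cd274 and overlapped in both receptors. After quantile normalization again, Cd274 overlapped too. Cd274 (Entrez 60533), made by tumour and myeloid cells as well as lymphocytes, stood at 6.81, 6.63 and 6.78 in SG+/- and at 7.35, 7.19 and 6.89 in SG-/- tumours. The Cd274 difference was 0.40 (standard error 0.16, 95% confidence interval 0.034 to 0.77). Its receptor gene Pdcd1 (PD-1) stood at 5.47, 5.80 and 5.51 in SG+/- and at 5.73, 5.56 and 5.80 in SG-/- tumours. The Pdcd1 values overlapped, and all 6 were below the dim level. Ctla4, the inhibitory receptor that competes with CD28, had a mean of 5.28 and a difference of 0.13, which was -0.040 without SG-/- replicate 3. Whether the Cd274 difference exceeded those of its partners was not tested. The Cd274 stretch, chr19:29367188-29367437 (plus strand) in GRCm38.p6, has a GATA match at each set of capitals and no match to the ISRE-like or GAS-like letters.
Cd274: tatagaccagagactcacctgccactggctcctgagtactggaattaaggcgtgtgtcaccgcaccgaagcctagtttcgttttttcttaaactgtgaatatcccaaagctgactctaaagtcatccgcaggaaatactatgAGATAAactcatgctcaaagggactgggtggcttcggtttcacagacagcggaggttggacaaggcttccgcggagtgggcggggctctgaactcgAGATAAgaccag

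Adhesion and costimulation receptors overlapped between genotypes. Of the 6 genes, 5 had a higher SG-/- mean, the median of their differences was 0.093, and none was free of overlap. Cd2, an adhesion receptor of T and NK cells, stood at 6.29, 6.28 and 6.21 in SG+/- and at 6.66, 6.23 and 6.40 in SG-/- tumours. SG-/- replicate 2 fell inside the SG+/- range in Cd2, and the difference of 0.17 was 0.052 without SG-/- replicate 1.

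Cd5, a brake on T cell receptor signalling, stood at 6.34, 6.41 and 6.69 in SG+/- and at 6.38, 6.47 and 6.78 in SG-/- tumours. Cd6, its relative, stood at 6.64, 6.53 and 6.66 in SG+/- and at 6.65, 6.47 and 6.99 in SG-/- tumours. Icos, the inducible costimulator, stood at 6.52, 6.57 and 6.56 in SG+/- and at 6.54, 6.57 and 6.79 in SG-/- tumours. In Cd5, Cd6 and Icos, SG-/- replicate 3 was the highest tumour, and the other SG-/- tumours lay among the SG+/- values or next to them. Without SG-/- replicate 3 the difference was -0.053 in Cd5, -0.045 in Cd6 and 0.011 in Icos. Cd28 and Cd27, at means of 5.44 and 5.71, were below the dim level, with differences of 0.24 and -0.11.

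Proximal signalling genes also overlapped throughout. Lat, the adaptor that gathers the signalling complex under the receptor, was the one matched gene of this group above the dim level. It stood at 6.98, 6.98 and 7.14 in SG+/- and at 7.05, 6.88 and 7.30 in SG-/- tumours, a difference of 0.042 that was -0.069 without SG-/- replicate 3. Zap70, the kinase that docks on phosphorylated CD3 chains, differed by 0.096, Themis, a thymocyte signalling protein, by 0.056, Ubash3a, a negative regulator, by 0.19 and Trat1, a transmembrane adaptor, by -0.030. In Trat1 the order of the 6 tumours was that of the receptor gene mean, from 5.55 in SG-/- replicate 1 to 6.33 in SG-/- replicate 3. With the receptor gene mean of each array as a covariate, the median difference over the 32 genes was 0.13.

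Transcription factors gave no common direction. Foxp3, which specifies regulatory T cells, stood at 6.38, 6.49 and 6.33 in SG+/- and at 6.33, 6.30 and 6.60 in SG-/- tumours. The Foxp3 difference was 0.010 (95% confidence interval -0.31 to 0.33), and its sign turned in 5 of 13 settings. Tbx21, which encodes T-bet, stood at 6.88, 6.63 and 6.98 in SG+/- and at 7.04, 6.81 and 6.94 in SG-/- tumours, with overlap and a difference of 0.10, which was 0.0017 without SG+/- replicate 2. Eomes, its relative in cytotoxic cells, was below the dim level, with a difference of -0.045.

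Bcl11b, a factor of T cell commitment that epithelia also express, was the least uniform gene of the set. It stood at 7.13, 8.73 and 7.01 in SG+/- and at 7.26, 7.12 and 7.49 in SG-/- tumours. A single tumour, SG+/- replicate 2, was far above the rest. The Bcl11b difference was -0.33 (standard error 0.44), and it was 0.22 without that tumour.

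NK cell and cytotoxic genes were not separated by genotype. Of 6 genes, 4 had a higher and 2 a lower SG-/- mean, the median of the differences was 0.15, and the genotypes overlapped in each. Nkg7, a granule membrane protein of cytotoxic cells, stood at 7.34, 7.23 and 7.60 in SG+/- and at 7.74, 7.52 and 7.41 in SG-/- tumours. Ctsw, the lymphocyte cathepsin W, stood at 6.92, 7.24 and 6.79 in SG+/- and at 7.14, 6.82 and 6.89 in SG-/- tumours. Their differences were 0.16 and -0.032.

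Klrd1, the CD94 chain that pairs with NKG2 receptors, stood at 6.35, 7.12 and 6.73 in SG+/- and at 6.17, 6.41 and 6.97 in SG-/- tumours. Both genotypes spanned more than the difference of -0.21 between them. Klrd1 was lowest in the array with the lowest receptor gene mean, SG-/- replicate 1. It was highest in SG+/- replicate 2 and SG-/- replicate 3, the arrays with the highest receptor gene means. With that mean as a covariate the Klrd1 difference was -0.19, with a standard error of 0.13 in place of 0.27. Ncr1, the NKp46 receptor, stood at 5.69, 5.98 and 5.57 in SG+/- and at 5.94, 5.71 and 6.63 in SG-/- tumours. SG-/- replicate 3 was the one tumour above the dim level in Ncr1, and without it the difference of 0.35 was 0.076. Klrk1, the NKG2D receptor, and Fasl, the death ligand, were below the dim level, with differences of 0.14 and 0.24.

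**Figure D3:**
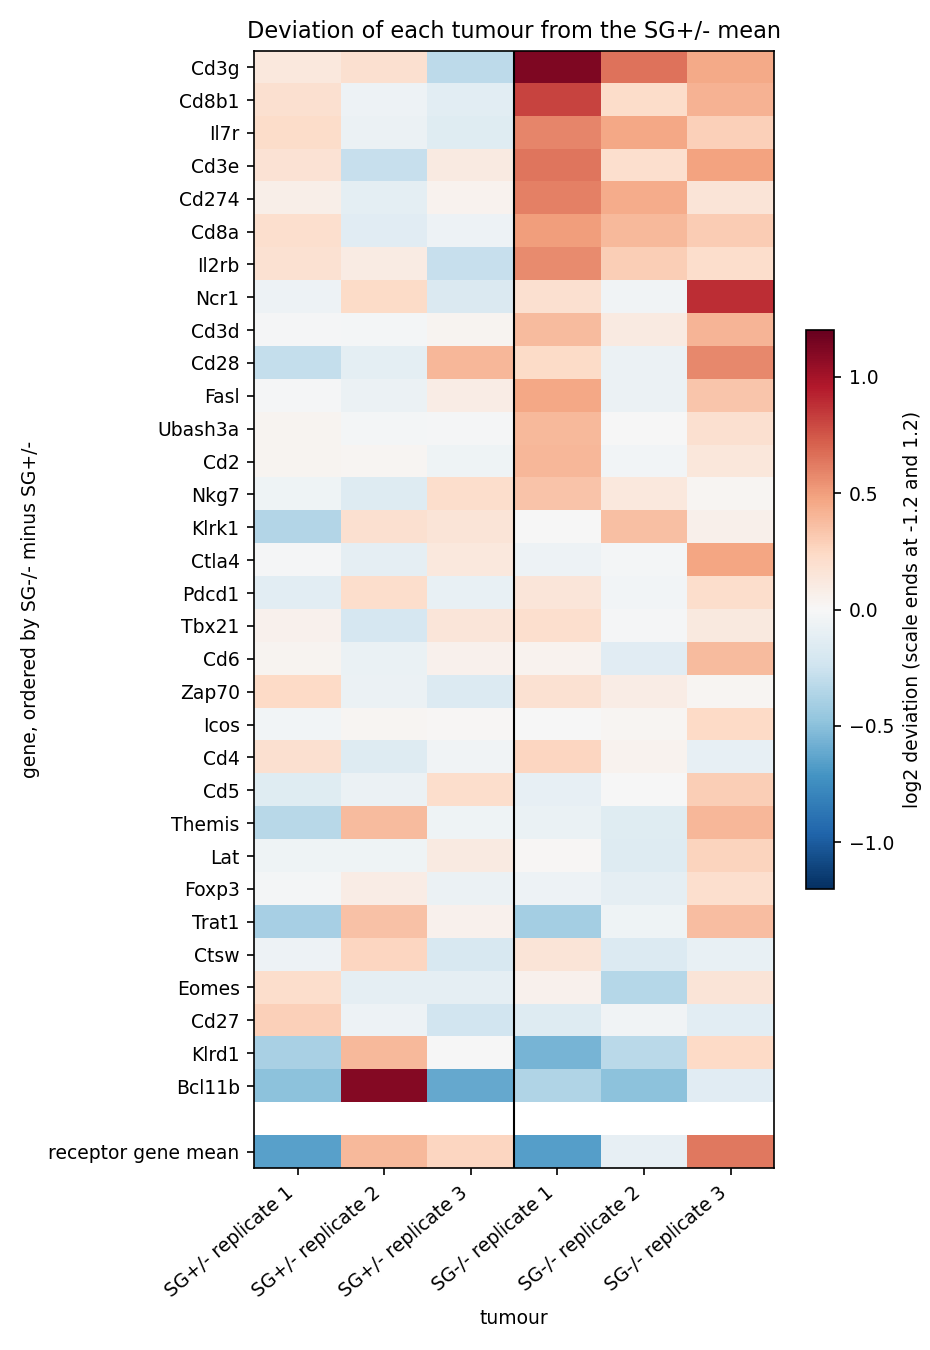
Deviation of each tumour from the SG+/- mean of the gene, in log2 units by colour, for the 32 genes ordered by genotype difference, with the mean of 1390 olfactory and vomeronasal receptor genes in the bottom row. Cd3g, Cd8b1, Il7r and Cd3e are red in all 3 SG-/- columns, Ncr1 mainly in SG-/- replicate 3, and Bcl11b in SG+/- replicate 2.

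Single tumours carried the set unevenly. SG-/- replicate 1 was the highest of the 6 in 13 of the 32 genes and SG-/- replicate 3 in 12, while SG-/- replicate 2 was the highest in 1. Over all genes, SG-/- replicate 1 was highest in 20% and SG-/- replicate 3 in 26.7%. The median deviation of the 32 genes from their SG+/- means was 0.19, -0.018 and 0.24 in the SG-/- tumours, and SG+/- tumours ran from -0.057 to -0.013, so the medians overlapped through SG-/- replicate 2. In SG-/- replicate 1 the high genes were mostly the brighter ones, 10 of 19. In SG-/- replicate 3, the array with the highest receptor gene mean, they were 6 of the 19 brighter and 6 of the 13 dimmer genes. With SG-/- replicate 3 left out, 20 of the 32 genes had a higher SG-/- mean.

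Other genes of T cell receptor signalling, from a list without any of the 36, were also read. Of 25 measured, 16 had a higher SG-/- mean, the median of the differences was 0.090, and 3 were free of overlap with higher SG-/- values and 1 with lower, against 2.84% and 3.19% of all genes. None was called by limma, and 1 was higher at an unadjusted p under 0.05, against 1.43% of all genes. Ptprc, the CD45 phosphatase of all leukocytes, was 0.42 higher and Rhoh, a haematopoietic GTPase needed for ZAP-70 recruitment, 0.39 higher. Of 19 other T cell genes, 16 were higher, 4 without overlap and 2 at an unadjusted limma p under 0.05, with a median difference of 0.11. Cxcr6, a chemokine receptor of tissue-resident T cells, was 0.53 higher, at 6.79, 6.62 and 6.37 in SG-/- against 6.23, 6.11 and 5.85 in SG+/- tumours, while Cd96, an NK and T cell receptor, differed by 0.0021.

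Regulatory T cell genes other than Foxp3 included Il2ra, the high-affinity IL-2 receptor chain. Il2ra was 0.64 higher, at 7.69, 7.61 and 7.39 in SG-/- against 6.98, 6.62 and 7.16 in SG+/- tumours, without overlap. Over the 8 genes of that list 6 were higher and 2 lower, with a median difference of 0.17. Further checkpoint and exhaustion genes were higher in 11 of 14, with a median of 0.18, among them Entpd1, an ectonucleotidase, by 0.52 and Lag3, an inhibitory receptor, by 0.20. None of these 22 genes was called by limma. At an unadjusted p under 0.05, 1 gene of each list was higher, against 1.43% of all genes.

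Further NK cell and innate lymphoid genes did not share a direction, with 8 of 13 higher and a median difference of 0.041. Those free of overlap were Itga2, an integrin of NK cells and also of epithelia, 1.02 higher, and Tyrobp, an adaptor of NK and myeloid receptors, 0.59 higher. This was 2 of the 13, against 2.84% of all genes. Klrb1c, which encodes NK1.1, was at a mean of 5.17 and differed by -0.012. Granule proteins, the partners of serglycin, were higher in 2 of 7 genes, with a median of -0.043. Of the 7 genes, 3 were above the dim level. Gzma, at a mean of 4.65 and so below that level, was 0.30 higher and Gzmk 0.32 higher, both with overlap. Gzmd differed by -0.89, which SG+/- replicate 2 set at 6.95 against 3.80 to 4.42 in the other tumours. Cytokines of T and NK cells, with 3 of 9 above the dim level, were higher in 5 of 9 genes with a median of 0.0031. Ifng, which encodes interferon gamma, differed by -0.029, while Tnf, a tumour necrosis factor gene, was 0.42 higher with overlap. At an unadjusted limma p under 0.05 these lists held 2 of 13, 0 of 7 and 0 of 9 genes, where 1.43% of all genes were higher. Limma called none of the listed genes after adjustment.

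Chemokines and cytokines that act on T and NK cells were higher in 10 of 11 genes, with a median difference of 0.28. Free of overlap with higher SG-/- values were 3 of the 11, against 2.84% of all genes. Cxcl9, a ligand of the chemokine receptor CXCR3 on T cells, stood at 8.11, 8.01 and 8.11 in SG+/- and at 9.78, 9.52 and 8.65 in SG-/- tumours. Ccl5 was 0.75 higher and Il18 was 0.28 higher, also without overlap. SG-/- replicate 1 was the highest tumour in all 3 and SG-/- replicate 3 the lowest SG-/- tumour. None was called by limma over all genes, and 2 of the 11 were higher at an unadjusted p under 0.05, against 1.43% of all genes.

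Markers of other leukocytes mostly had higher SG-/- means, none of them called by limma after adjustment. Which SG-/- tumours were high differed between these lists and the T cell and NK cell genes. Genes of all leukocytes were higher in 7 of 8, with a median of 0.43 and array medians of 0.70, 0.39 and 0.19 in SG-/- replicates 1 to 3 against -0.11 to 0.10 in SG+/- tumours. Their summed linear level ran from 4213 to 4921 in SG+/- and from 4155 to 5808 in SG-/- tumours. Macrophage markers were higher in all 12, with array medians of 0.74, 0.40 and -0.046 in SG-/- tumours. Their summed level was 6729 to 8356 in SG+/- and 7353 to 12534 in SG-/- tumours. Free of overlap and higher were 4 of the 8 genes of all leukocytes and 4 of the 12 macrophage markers, against 2.84% of all genes. Tumour epithelium markers had a median difference of 0.016, with a summed level of 22659 to 23658 in SG+/- and 22707 to 24767 in SG-/- tumours.

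B cell markers, of which 3 of 9 were above the dim level, were higher in 7 of 9, with array medians of 0.023, -0.078 and 0.55 in SG-/- replicates 1 to 3 and a summed level of 520 to 543 in SG+/- and 496 to 881 in SG-/- tumours. Lymph node stroma markers were higher in 3 of 6, with array medians of 0.21, -0.028 and 0.55, and a summed level of 529 to 624 in SG+/- and 699 to 1340 in SG-/- tumours. Without Cxcl13, a B cell chemokine that was 1.45 higher and was left out after its values were seen, the sums overlapped, at 423 to 475 in SG+/- and 428 to 602 in SG-/- tumours. Salivary gland markers were higher in 5 of 9, with array medians of 0.69, -0.36 and 1.36 and a summed level of 7232 to 13333 in SG+/- and 6952 to 23622 in SG-/- tumours. SG-/- replicates 1 and 3, in which T cell and NK cell genes were highest, were thus also the arrays in which lymph node stroma and salivary gland markers were highest. On an array no marker reads 0, and the part of these markers in the T cell differences was not tested.

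**Figure D4:**
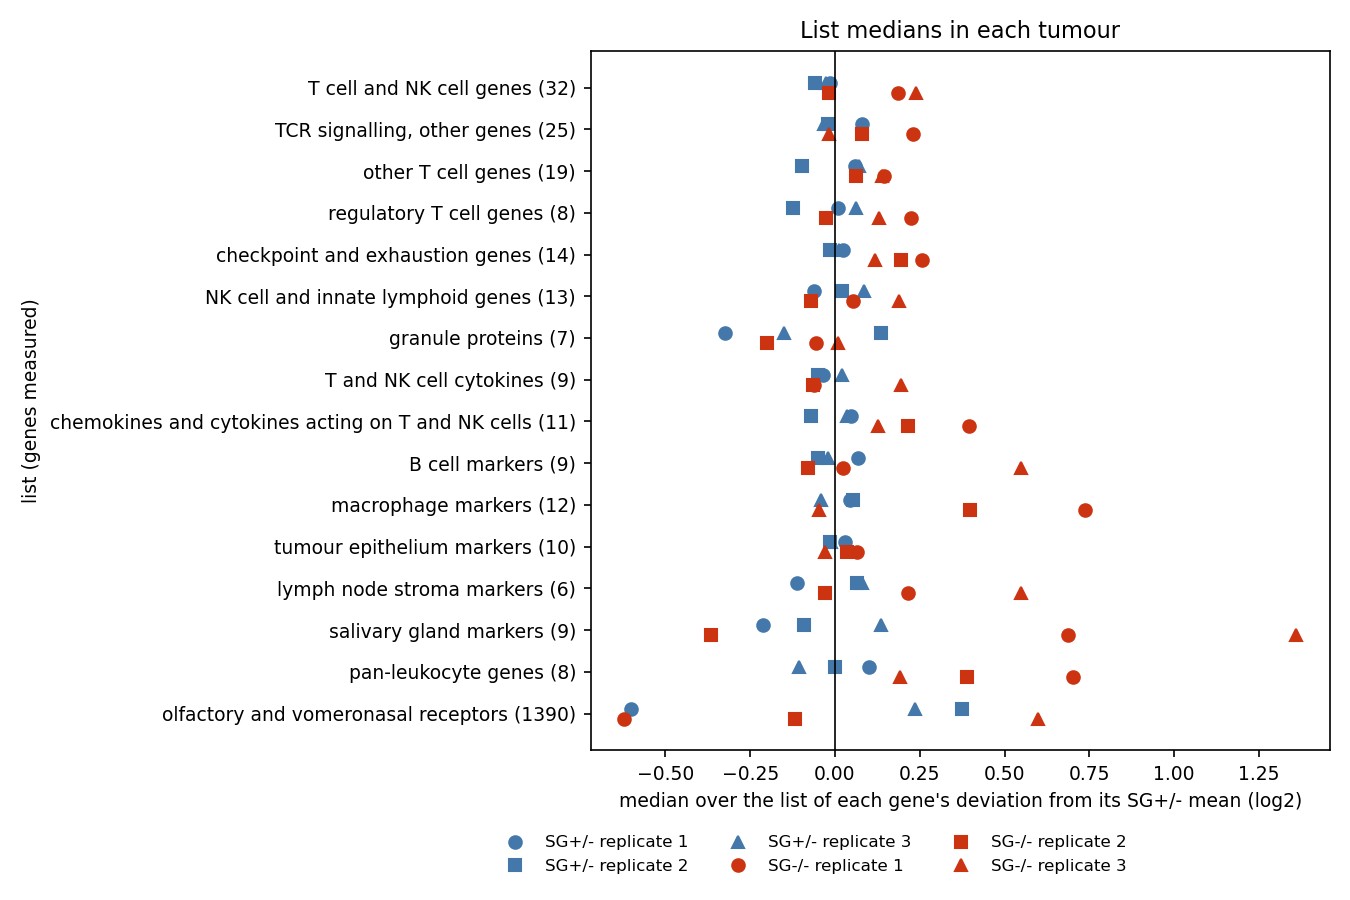
Median over each gene list of the deviation from the SG+/- mean, in log2 units on the x axis, for each tumour (symbols, blue SG+/- and red SG-/-), with the number of genes measured in brackets. The T cell and NK cell genes lie at 0.19, -0.018 and 0.24 in SG-/- replicates 1 to 3, pan-leukocyte genes at 0.70, 0.39 and 0.19, and macrophage markers at 0.74, 0.40 and -0.046.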

How the data were processed

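Whole-tumour RNA was hybridised to Affymetrix whole-transcript arrays, 1 per mouse. The table the authors deposited holds log2 values, made with RMA, which corrects background, quantile normalizes over probes and summarises probe sets. Expression Console (Affymetrix), limma and RMA are named, with no version, in the submitters' processing notes. There were 33793 probe sets with 0 missing values, of which 23521 carried 1 symbol in the platform annotation. The probe set with the highest mean was kept per gene. Each of the 32 matched genes had 1, and a further probe set that names Foxp3 beside other genes was not used. All 32 Entrez IDs were found in RefSeq (GRCm38.p6), which also gave the promoter sequences.

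Genotypes were compared as independent groups with limma 3.58.1 (lmFit, eBayes) under R 4.3.3, two-sided, adjusted over 22180 genes at 0.05. The labels give each sample its own mouse number. The test was checked on simulated data whose planted differences were larger than any in the set. The simulated arrays did not differ in background, so that check does not cover the differences seen here. With 3 arrays a genotype, their number limits the precision. Genes named from other lists were the one written first and those with the largest difference or smallest p, with Ccl5, Il18 and Tyrobp chosen after their values were seen. The gene set and lists were chosen with earlier results of these data known. Alternatives were leaving out dim genes, quantile normalization again, centring, eBayes with trend and robust settings, array weights, the mean of probe sets, the receptor mean as a covariate and leaving out each tumour.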

Additional observations from a re-analysis of the deposited data

How the results depend on the processing

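No gene of the set was called by limma under any setting tried, with a smallest adjusted p of 0.206, for Il7r with array weights, and 1.00 as the highest. Over all genes the count of calls was 0, and it was 1 with the receptor mean as a covariate and 0 to 1 when single tumours were left out. At an unadjusted p under 0.05 there were 469 genes, and 2569 with array weights. Of the 32 genes 26 were higher, 16 of the 19 left without dim genes, by the smaller number of genes, and 20 to 28 when single tumours were left out. The median difference ran from 0.087 to 0.18 then. The count free of overlap, 8, was 3 after quantile normalization again, a setting added after seeing the data along with the other settings for this count. The cause was not tested.

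Signs turned under some settings. With array weights the difference was 0.025 in Cd27, -0.15 in Cd28, -0.087 in Cd5, -0.11 in Cd6, -0.055 in Ctla4, -0.0064 in Fasl, -0.062 in Foxp3, -0.15 in Lat, -0.030 in Tbx21 and -0.10 in Themis. After quantile normalization again it was -0.013 in Foxp3. Leaving out single tumours gave ranges of -0.64 to 0.22 in Bcl11b, -0.22 to 0.038 in Cd27, -0.029 to 0.16 in Cd4, -0.053 to 0.17 in Cd5, -0.045 to 0.22 in Cd6, -0.040 to 0.22 in Ctla4, -0.13 to 0.097 in Ctsw, -0.15 to 0.10 in Eomes, -0.084 to 0.067 in Foxp3, -0.038 to 0.23 in Klrk1, -0.069 to 0.14 in Lat, -0.11 to 0.25 in Themis and -0.23 to 0.16 in Trat1. With no turn of sign, they were 0.0017 to 0.17 in Tbx21, -0.44 to -0.021 in Klrd1, 0.014 to 0.21 in Zap70 and 0.074 to 0.27 in Nkg7. Values of genes below the dim level are limited by their signal over background. No paired analysis was possible because the labels give each mouse its own number and name no pairing or batch.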
